A study of Mus musculus with 16 samples.

Results

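The aryl hydrocarbon receptor, a transcription factor that small molecules switch on, was followed here through 6 genes: Ahr, which encodes it, Arnt, which encodes its partner on DNA, and the target genes Cyp1a1, Cyp1b1, Ahrr and Tiparp. The 6 were taken by gene symbol from 30920 genes measured on 16 mouse gene arrays, 4 arrays for each of 4 groups. Each of them had a single feature on the array, built from 21 to 30 probes. The labels describe CD4 T cells from spleens of wild-type male C54BL/6 mice (the spelling of the labels), 8 weeks old and with no transgene named, cultured for 3 days. The groups were cells under a Th0 condition (Th0), cells under a Th17 condition (Th17), and cells under the Th17 condition with 20 μM of the cholesterol absorption inhibitor ezetimibe (Eze) or 20 μM of the statin rosuvastatin (Rsv). The study's methods give the Th17 condition as antibodies to CD3, CD28, interferon-γ and IL-4 with TGF-β and IL-6, and speak of spleen cells as well as CD4 T cells, so other spleen cells may have been present. Those methods place the drug after the stimulation, and the study's own accounts of the time in drug differ. For spleen cells analysed in vitro by flow cytometry they name BALB/c mice, another strain than the labels give. The study's text calls Th0 naïve T cells. Which of these accounts holds for the arrays is not stated. The sources used here do not say whether Th0 and Th17 cells received a drug solvent, nor which arrays were separate mice or separate cultures. P-values therefore cover only the spread from array to array, which may be technical.

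The receptor waits in the cytosol bound to Hsp90 and co-chaperones. When a ligand binds, it enters the nucleus, pairs with the Arnt protein and binds DNA at sites with the core letters GCGTG. Among the genes it switches on are Cyp1a1 and Cyp1b1, whose enzymes oxidise foreign compounds and the receptor's own ligands. Ahrr encodes a repressor that competes for Arnt, and Tiparp an ADP-ribosyltransferase that limits the receptor, so both feed back on it. In the T cell field Ahr is known as a gene of high expression in Th17 cells, and its ligands include products of tryptophan.

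The promoters of the 4 target genes are shown because the receptor is known to act through this core. The sequences are the 250 bases upstream of the start that the RefSeq promoter table (GRCm38.p6) gives for each gene, 5′ to 3′ on the strand of the gene, with the letters GCGTG, or CACGC where the core lies on the other strand, in capitals.
Cyp1a1, chr9:57697363-57697612, plus strand: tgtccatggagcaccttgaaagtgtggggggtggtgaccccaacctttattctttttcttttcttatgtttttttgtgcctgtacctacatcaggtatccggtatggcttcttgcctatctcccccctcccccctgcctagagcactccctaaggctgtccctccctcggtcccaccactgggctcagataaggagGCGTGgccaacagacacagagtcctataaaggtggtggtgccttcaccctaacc
Cyp1b1, chr17:79715062-79715311, minus strand: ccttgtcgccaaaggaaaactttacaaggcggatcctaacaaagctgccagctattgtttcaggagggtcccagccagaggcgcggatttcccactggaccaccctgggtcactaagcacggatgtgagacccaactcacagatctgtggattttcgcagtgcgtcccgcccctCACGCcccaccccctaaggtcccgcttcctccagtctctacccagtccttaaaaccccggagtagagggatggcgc
Ahrr, chr13:74292332-74292581, minus strand: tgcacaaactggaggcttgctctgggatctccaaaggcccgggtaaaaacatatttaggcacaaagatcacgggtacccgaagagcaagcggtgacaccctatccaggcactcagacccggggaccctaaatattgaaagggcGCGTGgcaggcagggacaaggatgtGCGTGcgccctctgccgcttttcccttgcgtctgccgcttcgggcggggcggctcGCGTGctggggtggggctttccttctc
Tiparp, chr3:65528197-65528446, plus strand: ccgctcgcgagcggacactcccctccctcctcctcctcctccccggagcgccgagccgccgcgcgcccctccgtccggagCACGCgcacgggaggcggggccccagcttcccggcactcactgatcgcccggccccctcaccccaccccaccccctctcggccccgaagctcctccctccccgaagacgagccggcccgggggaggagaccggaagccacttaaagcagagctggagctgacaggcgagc
For Cyp1a1 this start lies inside the interval that RefSeq gives the whole gene, so the sequence precedes the start of 1 of its transcripts and not the outer end of the gene. The table matched 5 of the 6 genes, Ahr being the one without an entry. The core began 54 bases before the start in Cyp1a1, 76 in Cyp1b1 and 170 in Tiparp, and at 107, 82 and 27 bases in Ahrr. Arnt held 1 core, 29 bases before its start. These letters are common: of 32851 RefSeq promoter windows of 300 bases, searched on both strands, 32.4% held at least 1 core, 11.1% at least 2 and 3.91% at least 3. In the 250 upstream bases alone, the stretch shown here, 28.2% held at least 1 and 2.77% at least 3. The counts describe the sequence and do not show that the receptor was bound there.

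The deposited values were log2 signals, so a difference of 1 is a doubling of signal. Signals of different genes come from different probes and were not set against each other. Arrays of one group correlated at 0.985 to 0.994 over all genes. The lowest values were those of the unnumbered Rsv array (0.985, 0.987 and 0.989), which also took the lowest weight (0.42) when arrays were weighted. The area under the curve that separates exon from intron control probes, a measure of RNA and labelling quality, was highest in Eze (0.890 to 0.894), lowest in Th0 (0.870 to 0.876) and between them in Th17 (0.876 to 0.881) and Rsv (0.877 to 0.881). Differences were tested with limma on all 30920 genes, with Benjamini-Hochberg adjusted p-values and a threshold of 0.05, and a gene past it is called higher or lower. Brightness divided the genes. Arnt lay above all 23 antigenomic background features in every group, Ahr in Th17, Eze and Rsv (18 of 23 in Th0), and Tiparp in Th17 and Eze (21 in Th0 and 20 in Rsv). Ahrr, Cyp1a1 and Cyp1b1 were dim, with group means above only 13 to 17 of the 23 features and above 32.6% to 82.0% of 5331 intron control features. Their differences are differences of dim signals, and whether transcripts were present at all in Th0 and Th17 cannot be told from these values. Most T cell markers were bright (Cd3e 10.28 to 10.97 and Cd4 10.11 to 10.56 on the log2 scale by group), though Cd247 was dimmer (6.36 to 6.74). Under the 95th percentile of intron controls lay 1 of 8 T cell markers in Th0, Eze and Rsv, and all 8 myeloid markers in every group. Of 8 B cell markers 2 lay under it in Th0 and 7 in each other group, with Cd74 at 7.92 to 9.46 by group.

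Ahr (chromosome 12, 35497974 to 35535038, minus strand, in the deposited annotation, whose genome build is not stated) was much higher in Th17 than in Th0, and lower with either drug than in Th17. Its log2 signal in replicates 1, 2 and 3 and in the array without a number was 6.48, 6.30, 6.35 and 6.58 in Th0 and 9.18, 9.05, 9.19 and 9.26 in Th17. With ezetimibe it was 7.99, 8.02, 8.17 and 8.16, and with rosuvastatin 8.66, 8.51, 8.56 and 8.51. No 2 groups overlapped, and the order from high to low was Th17, Rsv, Eze, Th0, with every neighbouring pair past the threshold. Th17 exceeded Th0 by 2.74 (SE 0.08, 6.69-fold, adjusted p = 1.22e-13). Ezetimibe lowered it from there by 1.09 (SE 0.08, 2.12-fold, adjusted p = 2.02e-08) and rosuvastatin by 0.61 (1.53-fold, adjusted p = 1.86e-05). Both drugs left Ahr above Th0, by 1.65 in Eze and 2.13 in Rsv. The signal was 0.48 lower in Eze than in Rsv (95% confidence interval 0.30 to 0.65 lower, adjusted p = 0.000325).

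**Figure D1:**
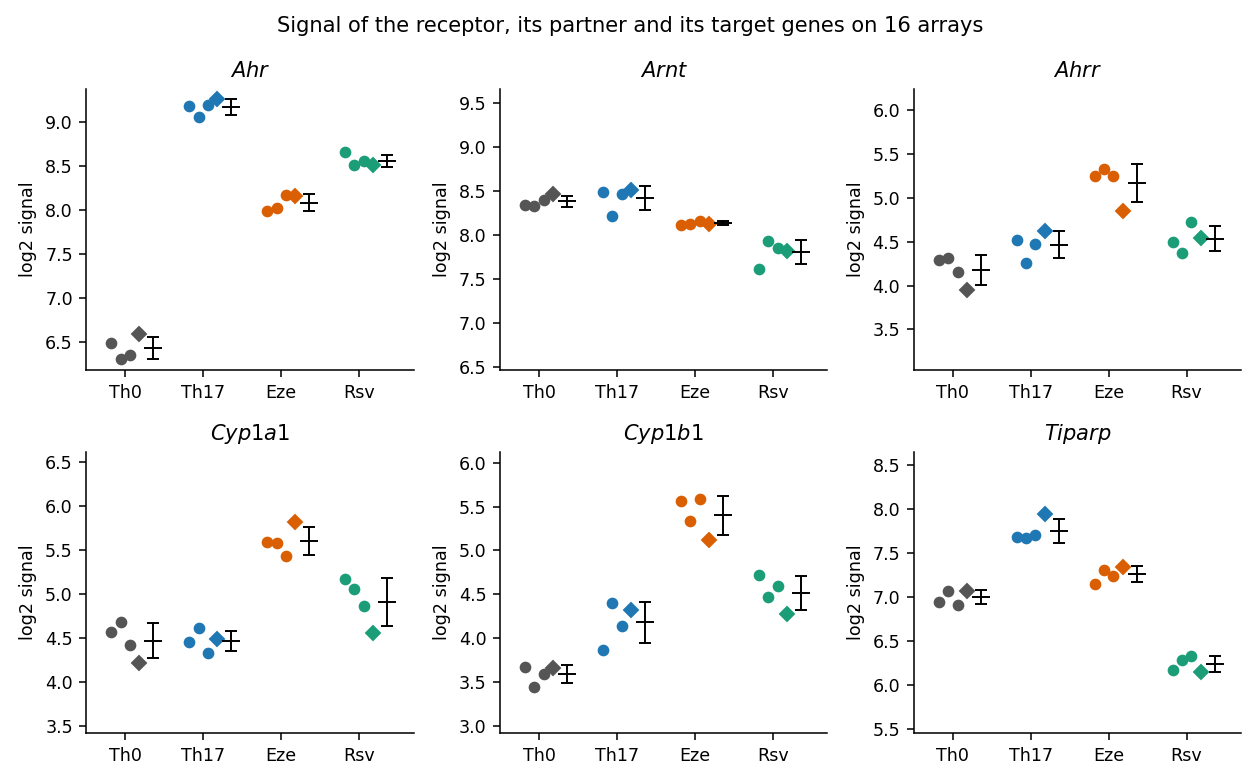
Log2 signal of the receptor gene, its partner and 4 target genes on each of 16 arrays, by group. Circles are replicates 1 to 3, diamonds the array without a number, and the bars the mean and SD of 4 arrays; all panels span the same height, though the level differs from panel to panel. Ahr was highest in Th17 (9.05 to 9.26), Cyp1a1, Cyp1b1 and Ahrr in Eze, and Tiparp lowest in Rsv (6.15 to 6.34).

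Arnt (chromosome 3, 95434388 to 95497240, plus strand), whose protein pairs with the receptor and with other factors of the same family, showed no called difference between Th0 and Th17 and was lower with each drug than in Th17. The 4 arrays read 8.34, 8.33, 8.40 and 8.46 in Th0 and 8.48, 8.21, 8.46 and 8.51 in Th17, and these groups overlapped (difference 0.03, 95% confidence interval -0.15 to 0.21, adjusted p = 0.868). They read 8.11, 8.12, 8.16 and 8.12 in Eze and 7.61, 7.93, 7.84 and 7.82 in Rsv, all below the Th17 arrays. Arnt fell by 0.29 with ezetimibe (1.22-fold, adjusted p = 0.0206) and by 0.61 with rosuvastatin (SE 0.09, 1.53-fold, adjusted p = 2.46e-05). The level in Rsv was also under that in Eze, by 1.25-fold (adjusted p = 0.00821). The small fall with ezetimibe did not pass when each array was centred on its median (-0.22, adjusted p = 0.167), in numbered arrays alone (-0.25, adjusted p = 0.112), or without Th17 replicate 1 (-0.26), Th17 replicate 3 (-0.27) or the unnumbered Th17 array (-0.25).

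Cyp1a1 (chromosome 9, 57687928 to 57703824, plus strand), the best known target of the receptor, had nearly the same mean in Th0 and Th17 and was higher with ezetimibe than in any other group. Signals were 4.57, 4.68, 4.41 and 4.21 in Th0 and 4.45, 4.61, 4.33 and 4.48 in Th17, against 5.59, 5.57, 5.44 and 5.82 in Eze and 5.17, 5.06, 4.86 and 4.55 in Rsv. Every Eze array was above every array of the other groups. The difference from Th17 was 1.14 in Eze (SE 0.13, 2.20-fold, adjusted p = 2.49e-06) and 0.44 in Rsv (SE 0.13, 1.36-fold, adjusted p = 0.0164). The Rsv arrays overlapped both Th17 and Th0, the exact two-sided Mann-Whitney test gave p = 0.0571 against Th17, and the unnumbered Rsv array lay only 0.07 above the unnumbered Th17 array. That call was lost without Th17 replicate 3 (0.40), Rsv replicate 1 (0.36) or Rsv replicate 2 (0.39), and the one against Th0 (0.44, adjusted p = 0.016) without the unnumbered Th0 array (0.36), Rsv replicate 1 (0.36) or Rsv replicate 2 (0.39). The change from Th0 to Th17 was -0.00031 (95% confidence interval -0.27 to 0.27, adjusted p = 0.999). Ezetimibe exceeded rosuvastatin by 0.69 (95% confidence interval 0.42 to 0.97, adjusted p = 0.00059).

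Cyp1b1 (chromosome 17, 79706894 to 79715061, minus strand), the second cytochrome of the family, rose from Th0 to Th17 and again with ezetimibe. The Th0 arrays stood at 3.67, 3.45, 3.59 and 3.66 and the Th17 arrays at 3.87, 4.40, 4.14 and 4.32, without overlap (0.59 higher, SE 0.13, adjusted p = 0.00308). Eze arrays stood at 5.57, 5.33, 5.59 and 5.12 and Rsv arrays at 4.72, 4.48, 4.59 and 4.27. All 4 Eze arrays were above every other array, 1.22 above Th17 on average (SE 0.13, 2.33-fold, adjusted p = 1.03e-06) and 1.81 above Th0 (3.50-fold, adjusted p = 1.13e-08). Rsv and Th17 overlapped and their difference of 0.33 did not pass (95% confidence interval 0.06 to 0.60, adjusted p = 0.0679). It was 0.46 among numbered arrays (adjusted p = 0.0235) and -0.05 between the unnumbered ones, and it passed without Th17 replicate 2 (0.41) or without the unnumbered Rsv array (0.41). Eze exceeded Rsv by 0.89 (SE 0.13, adjusted p = 5.18e-05).

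Ahrr (chromosome 13, 74211118 to 74292331, minus strand), the repressor, was also highest in Eze. Arrays gave 4.29, 4.31, 4.15 and 3.95 in Th0, 4.52, 4.25, 4.48 and 4.61 in Th17, and 4.49, 4.37, 4.72 and 4.54 in Rsv, and neither neighbouring pair in the order Rsv, Th17, Th0 differed past the threshold (adjusted p = 0.730 and 0.117). The Eze arrays gave 5.25, 5.33, 5.25 and 4.85, the lowest being the array without a number, and all were above those of the other groups. The excess over Th17 was 0.70 (SE 0.12, 1.63-fold, adjusted p = 0.000178), at 0.86 among numbered arrays and 0.24 between the unnumbered ones. Over Rsv it was 0.63 (95% confidence interval 0.39 to 0.88, adjusted p = 0.000556). Rsv lay 0.36 above Th0 (adjusted p = 0.0307), a call that was lost with arrays centred on their medians (0.31, adjusted p = 0.0928) and without Th0 replicate 3 (0.35), the unnumbered Th0 array (0.28), Rsv replicate 3 (0.29) or the unnumbered Rsv array (0.35).

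Tiparp (chromosome 3, 65528410 to 65555518, plus strand) took another course than the other 3 targets. It was 6.95, 7.07, 6.92 and 7.07 in Th0 and rose to 7.68, 7.68, 7.70 and 7.95 in Th17 (0.75 higher, SE 0.08, 1.68-fold, adjusted p = 2.78e-06). With ezetimibe the values were 7.15, 7.32, 7.24 and 7.35, and with rosuvastatin 6.18, 6.29, 6.34 and 6.15. The 4 groups were separate, in the order Th17, Eze, Th0, Rsv. Ezetimibe lowered Tiparp by 0.49 from Th17 (1.40-fold, adjusted p = 0.000229), to a level still 0.26 above Th0 (adjusted p = 0.0312), and rosuvastatin by 1.51 (SE 0.08, 2.86-fold, adjusted p = 2.42e-10), to 0.76 below Th0 (adjusted p = 1.32e-06). The excess of Eze over Th0 lost its call without Th0 replicate 1 (0.25) or 3 (0.23), Eze replicate 2 (0.24) or 3 (0.27), or the unnumbered Eze array (0.23). Eze exceeded Rsv by 1.02 (2.03-fold, adjusted p = 5.28e-08), the widest of the 6 differences between the drugs.

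Th17 polarisation against Th0 asks how the receptor genes stand once cells are driven to the Th17 state. Ahr, Tiparp and Cyp1b1 rose and none of the 6 genes fell, while 15.8% of all genes were called, 8.5% as higher and 7.29% as lower. The arrays of these 3 genes did not overlap, as for 19.6% of all genes. The median of all 6 genes was 0.44, against -0.03 over all genes tested. The rise of the dim gene Cyp1b1 (0.59) lay within the range of the intron controls in this comparison (-0.56 to 0.60 from the 5th to the 95th percentile). Other genes of the pathway came from 5 lists, of which 29 of 32 genes were measured and 13 lay above background, and 10 of them were higher and 8 lower (median -0.07). Among 7 T cell genes tied to the receptor 6 were higher, led by the homing receptor Gpr15 (2.42), the transcription factor Maf (2.03) and the cytokine Il21 (1.54). The cytokine Il22, a known output of the receptor in T cells, was near the lowest signals on the array in all groups (means 1.26 to 1.91) and did not pass here (adjusted p = 0.722). Among 6 relatives of the receptor's family, the clock genes Arntl (1.39), Npas2 (1.32) and Clock (0.30) and the hypoxia factor Hif1a (0.51) were higher, and Epas1, a second hypoxia factor, was 1.54 lower. Of 7 genes of tryptophan uptake and breakdown, 5 were lower, among them the tryptophan-degrading Ido1 (-1.73) and the amino acid carrier Slc7a5 (-1.71). Npas2, Epas1 and Ido1 were not among the 13 genes above background. B cell markers moved in this comparison too: all 8 were lower in Th17, with a summed linear signal of 1631 to 1689 in Th0 and 466 to 501 in Th17. Of the other lists, 6 of 8 T cell markers were higher (7760 to 8106 in Th0 and 10379 to 10738 in Th17), as were Cd8a (0.91), 2 of 5 natural killer markers, among them Klrd1 (3.32; list sum 79 to 96 against 337 to 378; 1 lower), and 2 of 8 myeloid markers, among them Lyz2 (1.34; list sum 100 to 112 against 136 to 150). No marker was at 0, and the part of these cells in the results was not tested. In such bulk samples, fewer cells of a type and less RNA per cell cannot be told apart.

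Ezetimibe under Th17 conditions moved all 6 genes, in opposite directions. The receptor gene Ahr, its partner Arnt and the feedback gene Tiparp were lower than in Th17, and Cyp1a1, Cyp1b1 and Ahrr were higher, where 21.7% of all genes were called, 11.2% as higher and 10.5% as lower. Each group of 4 arrays was apart from the other for all 6 genes, as for 25.5% of all genes. Between these groups the 23 antigenomic features differed by -0.26 to 0.06 (median -0.02), and intron controls by -0.62 to 0.56 from their 5th to their 95th percentile. The rises of Cyp1a1 (1.14), Cyp1b1 (1.22) and Ahrr (0.70) were beyond the latter range. Between the unnumbered arrays and among the numbered ones the direction was the same for all 6 genes, as it must be where arrays do not overlap.

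**Figure D2:**
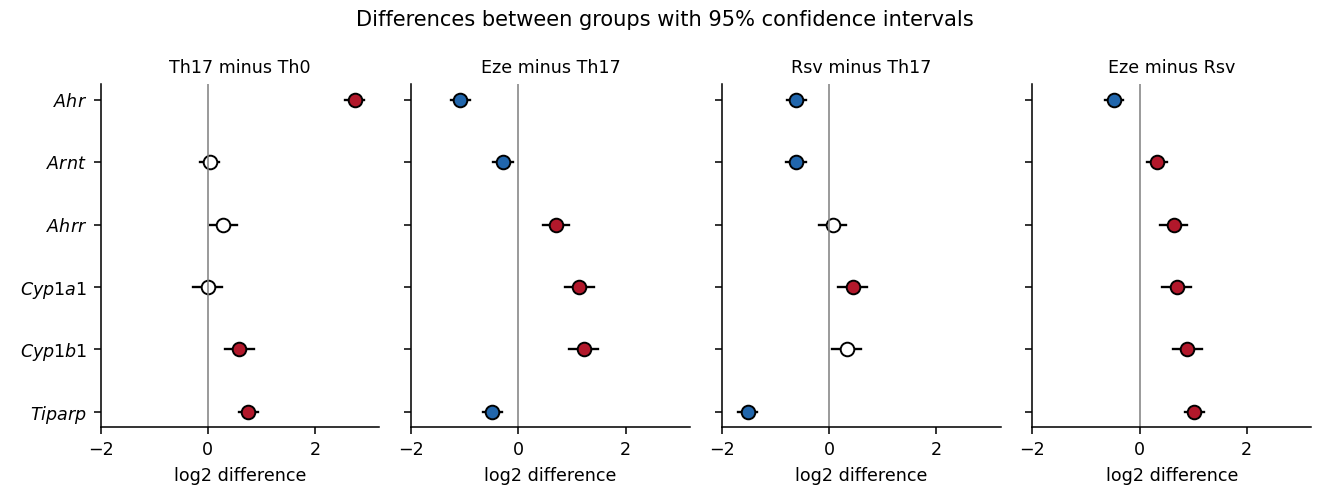
Log2 difference between groups (horizontal axis) for the 6 genes, with 95% confidence intervals from limma. Filled points passed the adjusted threshold (red higher, blue lower) and open points did not; Eze minus Th17 has 3 genes on each side of 0, and Rsv minus Th17 has Tiparp at -1.51.

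Around the receptor, 10 of 29 listed genes were higher and 7 lower with ezetimibe (median -0.05, against -0.04 over all genes). Of the cytosolic chaperone genes, 3 rose: Hsp90aa1 (0.44, adjusted p = 0.00106) and Hsp90ab1 (0.33), which encode the cytosolic Hsp90 proteins, and Ptges3 (0.79), which encodes the p23 co-chaperone. Arntl (-0.70), Hif1a (-0.62) and Epas1 (-0.57) fell among the relatives, and none of the 6 rose. Other drug metabolism targets were all dim, and of 5 measured only the quinone reductase gene Nqo1 was higher (0.58, adjusted p = 0.00144, groups overlapping), while Cyp1a2 stood at -0.28 (adjusted p = 0.251), Aldh3a1 at -0.06, Gsta1 at -0.21 and Gsta2 at -0.05. The T cell genes were split, with Maf (-0.84), Il10 (-0.63), the ectonucleotidase gene Entpd1 (-0.51) and Ikzf3 (-0.33) lower, Il21 (0.36) and, with overlap and close to the floor of the array, Il22 (0.53, adjusted p = 0.0459) higher, and Gpr15 at -0.06 (adjusted p = 0.730). Epas1 and Entpd1 were not above background and lay within the intron control range of this comparison. In the tryptophan list 4 of 7 genes rose: Slc7a5 by 2.01 (8.07 in Th17 to 10.08 in Eze), the kynureninase gene Kynu by 0.75, Ido1 by 0.71 and the kynurenine monooxygenase gene Kmo by 0.61, of which all but Slc7a5 were dim. The 8 B cell markers were all higher in Eze than in Th17 (summed linear signal 880 to 939 against 466 to 501), and 7 of 8 T cell markers were lower (7488 to 8064 against 10379 to 10738). Cd8b1 (-0.34), 2 of 5 natural killer markers (sum 151 to 185 against 337 to 378) and 2 of 8 myeloid markers (108 to 119 against 136 to 150) were also lower, and no innate lymphoid or stromal marker was called. None of these markers was at 0, and their part in the changes above was not tested.

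**Figure D3:**
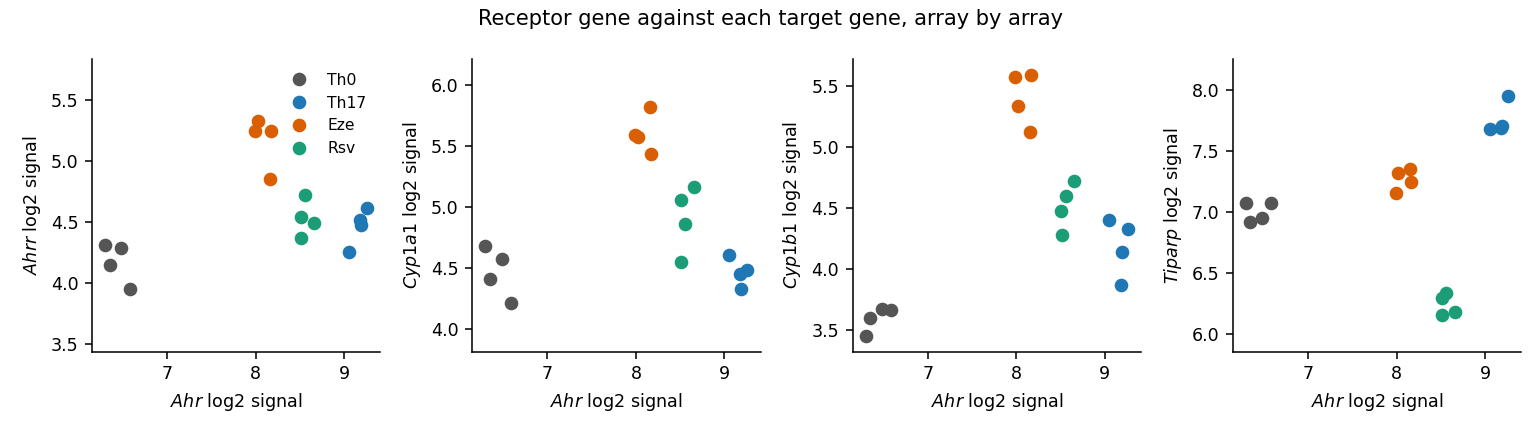
Log2 signal of each target gene (vertical axis) against that of Ahr (horizontal axis), 1 point per array, coloured by group. The Eze arrays held more Cyp1a1, Cyp1b1 and Ahrr signal than the Th17 arrays at lower Ahr (7.99 to 8.17 against 9.05 to 9.26), while Tiparp was highest in Th17.

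Rosuvastatin, the second drug at the same dose, was compared with the same 4 Th17 arrays, so the values of both drugs share them. Ahr, Arnt and Tiparp were lower, Cyp1a1 was higher, and Cyp1b1 and Ahrr did not pass, where 26% of all genes were called, 13.6% as higher and 12.4% as lower. The arrays were apart for Ahr, Arnt and Tiparp, as for 25.5% of all genes. The rise of Cyp1a1 (0.44) lay within the range of the intron controls (-0.84 to 0.52 from the 5th to the 95th percentile). For Ahr the change was -1.09 with ezetimibe and -0.61 with rosuvastatin, and for Arnt it was -0.29 and -0.61. Tiparp changed by -0.49 and -1.51. For Cyp1a1 the values were 1.14 and 0.44, for Cyp1b1 1.22 and 0.33, and for Ahrr 0.70 and 0.07. Of the other pathway genes 9 were higher and 8 lower (median 0.10, against 0.06 over all genes). Maf (-0.51), Entpd1 (-0.52), Il10 (-0.45) and Il21 (-0.93) fell, whereas Gpr15 (0.46) and Ikzf3 (0.40) rose. Slc7a5 (0.76), Kynu (0.91), Kmo (0.62) and Nqo1 (0.66) were higher, and Haao, a later enzyme of the kynurenine path, fell by 0.71. As with ezetimibe, Hsp90aa1 (0.37, adjusted p = 0.00481) and Ptges3 (0.60, adjusted p = 0.00189) rose, while Hsp90ab1 did not pass (0.10, adjusted p = 0.334). Among the 6 relatives 3 fell, Arntl (-0.61), Npas2 (-0.69) and Hif1a (-0.37), and 1 rose. Of the pathway genes named here, Entpd1, Kynu, Kmo, Nqo1, Haao and Npas2 were not above background. The falls of Entpd1, Haao and Npas2 lay within the intron control range of this comparison. Beside these changes, 5 of 8 myeloid markers were higher (summed linear signal 208 to 247 in Rsv and 136 to 150 in Th17, all dim and none at 0). Both CD8 markers (Cd8a 7.34 against 6.08) and 4 of 8 B cell markers (587 to 686 against 466 to 501) were higher, as were 2 of 6 innate lymphoid and stromal markers (107 to 128 against 98 to 107). Of 5 natural killer markers 3 were higher, but the list sum did not rise (279 to 371 against 337 to 378). Its brightest gene, Klrd1, stood 0.39 lower without overlap and did not pass (adjusted p = 0.0639). Of the T cell markers 5 of 8 were lower (9289 to 9772 against 10379 to 10738). Their part in the results was not tested.

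The test of whether the drugs differed is Eze against Rsv, and it passed for all 6 genes, where 28.5% of all genes were called, 13.3% as higher and 15.2% as lower. Eze had more Arnt, Cyp1a1, Cyp1b1, Ahrr and Tiparp signal and less Ahr signal than Rsv, with no overlap of arrays in any of the 6, as for 28.6% of all genes. Without overlap the direction had to be the same in both sets of array names. The Cyp1a1 difference was 1.27 between the unnumbered arrays and 0.50 among the numbered ones. Of the other pathway genes 7 were higher and 7 lower: Il21 (1.29, adjusted p = 6.29e-09), Slc7a5 (1.25, adjusted p = 5.12e-09), Npas2 (0.41) and Haao (0.45) were among the higher, and Ikzf3 (-0.73), Gpr15 (-0.53), Maf (-0.34) and Hif1a (-0.25) among the lower. Hsp90ab1 was higher too (0.23, adjusted p = 0.0205), while Hsp90aa1 (0.08, adjusted p = 0.548) and Ptges3 (0.18, adjusted p = 0.312) did not pass. Antigenomic background features were 0.04 to 0.18 higher in Eze (median 0.12), and intron controls ranged from -0.55 to 0.74 from their 5th to their 95th percentile. Of the 3 dim targets, Ahrr (0.63) and Cyp1a1 (0.69) lay inside the latter range and Cyp1b1 (0.89) outside it. Npas2 and Haao, which were not above background, lay inside that range too. All 8 myeloid markers were lower and 7 of 8 B cell markers higher in Eze than in Rsv. Both CD8 markers (Cd8a -1.50, Cd8b1 -1.05), 3 of 5 natural killer markers (Klrk1 -1.58), 4 of 8 T cell markers and 1 of 6 innate lymphoid and stromal markers were lower in Eze, and 1 T cell marker was higher. Their part in the differences was not tested.

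**Figure D4:**
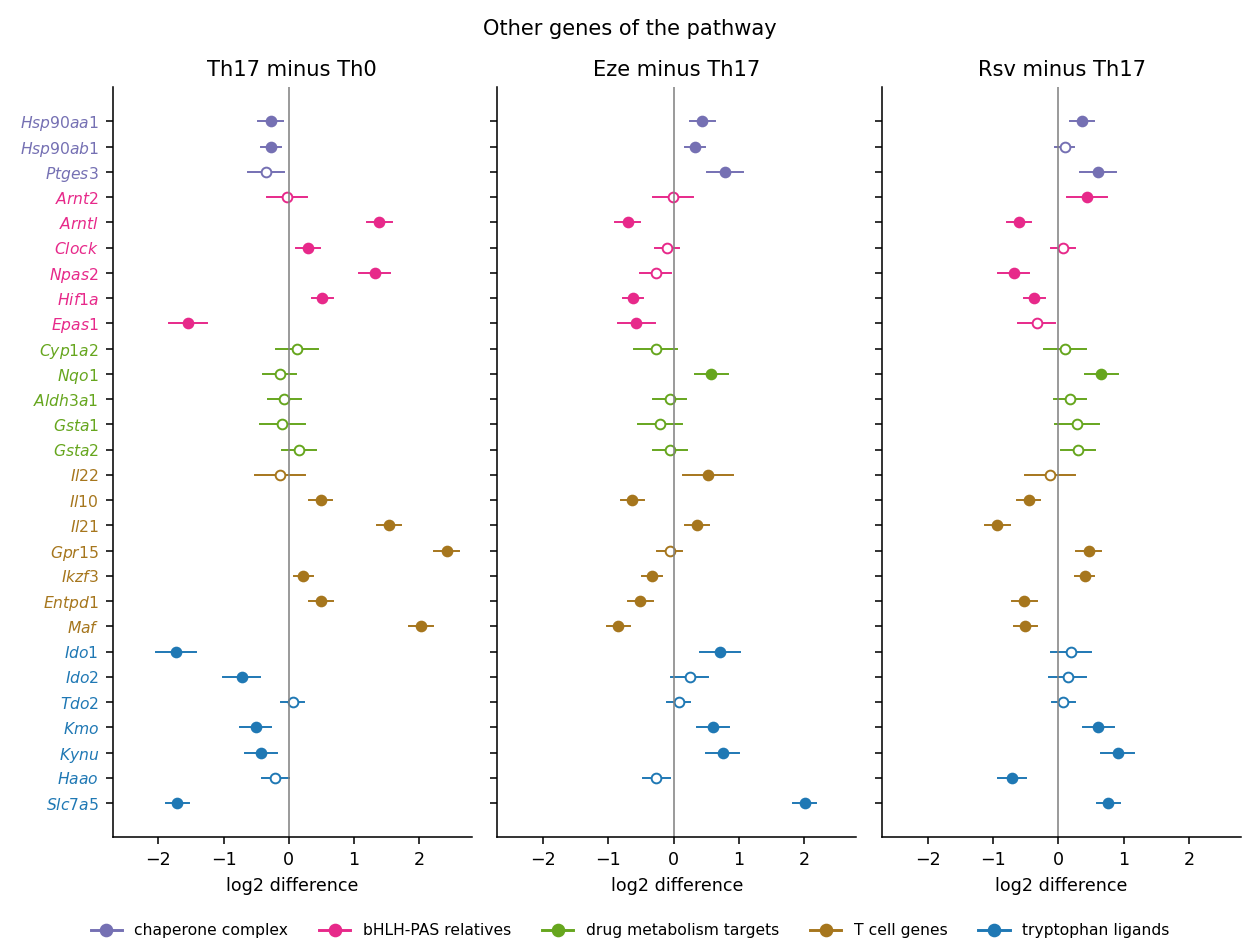
Log2 differences with 95% confidence intervals (horizontal axis) of other genes of the pathway, coloured by list, in 3 comparisons. Filled points passed the adjusted threshold. Slc7a5 was 1.71 lower in Th17 than in Th0 and 2.01 higher in Eze than in Th17. Filled chaperone genes lie right of 0 with either drug, 3 with ezetimibe and 2 with rosuvastatin.

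Set against Th0, either drug group had higher Ahr, Cyp1a1, Cyp1b1 and Ahrr and lower Arnt, while Tiparp was higher in Eze and lower in Rsv (22.5% of all genes called in Eze, 11.7% higher and 10.9% lower, and 26.2% in Rsv, 13.4% higher and 12.8% lower). In Eze the arrays of all 6 genes were apart from Th0, as for 27.2% of all genes, and in Rsv those of all but Cyp1a1, as for 25.5%. Intron controls ranged from -0.60 to 0.55 in Eze against Th0, with all 3 dim targets outside, and from -0.82 to 0.54 in Rsv against Th0, with Cyp1a1 (0.44) and Ahrr (0.36) inside. All 8 B cell markers were lower than in Th0 in both drug groups (medians -1.07 in Eze and -1.53 in Rsv). In Rsv 7 of 8 myeloid markers, both CD8 markers (Cd8a 2.17), 3 of 5 natural killer markers and 3 of 8 T cell markers were higher, with 2 T cell markers lower. In Eze Cd8a (0.66), 2 of 5 natural killer markers and 1 of 8 myeloid markers were higher, and 2 of 8 T cell markers and 1 natural killer marker were lower. Their part in these differences was not tested. Of the 36 tests over 6 comparisons 31 passed, 29 of these without overlap. By comparison, 15.8% to 28.5% of all genes were called and 19.6% to 28.6% did not overlap. The comparisons pair the same 4 groups, so the 36 tests are not independent of one another. All 31 had the same sign in both sets of array names, but for the 29 the lack of overlap fixed this in advance. The Arnt difference between Eze and Th0 was small (-0.25, adjusted p = 0.0406) and lost its call whichever of the 8 arrays was left out (-0.27 to -0.23).

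For the 4 genes whose group means spanned at least 1 on the log2 scale, the 5 genes most like each over the 16 arrays were sought among 2216 genes that also spanned at least 1, by Pearson's r, and those reported here follow. The arrays fall into 4 groups, so that r describes the group means and carries no p. Genes like Ahr, which had a span of 2.74, were Maf (r = 0.992), the histone variant gene H2afy (0.990), the zinc carrier gene Slc39a8 (0.982) and the ubiquitin ligase gene Wwp1 (0.980). Cyp1b1 (span 1.81) was most like Scd1 (0.976), a fatty acid desaturase gene, followed by Cenph, Kntc1 and Fancd2 (0.928 to 0.936). Tiparp (span 1.51) was most like Zscan12 (0.987) and the cholesterol efflux gene Abca1 (0.982), followed by Mboat2, Ppme1 and Ndrg2. For Cyp1a1 (span 1.14) they ran from Prkar2a (0.937), Wdr18, Ifitm7 and Mcm8 to the cytokine gene Il9 (0.920), whose mean log2 signal was 4.69 in Th17, 10.42 in Eze and 8.03 in Rsv.

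**Figure D5:**
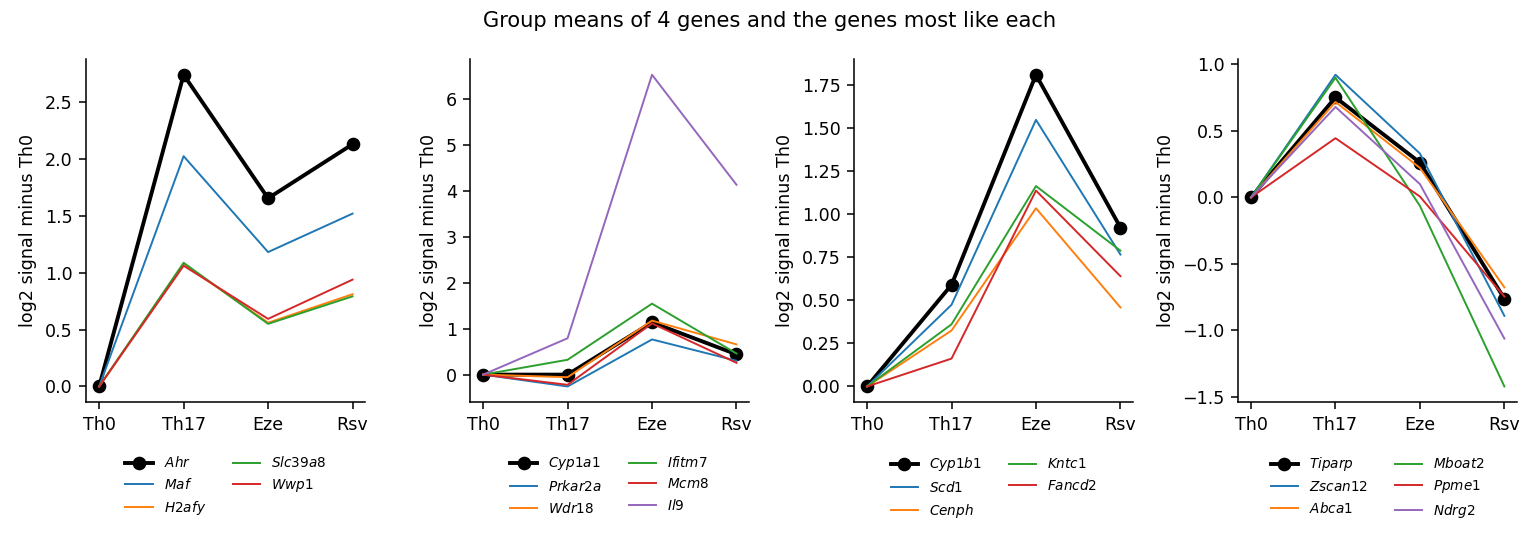
Group means minus the Th0 mean (vertical axis, log2 signal) for Ahr, Cyp1a1, Cyp1b1 and Tiparp (black) and genes most like each (colours), over the 4 groups. Ahr peaked in Th17, Cyp1a1 and Cyp1b1 in Eze, and Tiparp was lowest in Rsv. The like genes follow the same courses because they were chosen by their correlation over these arrays.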

How the data were processed

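MoGene-2_0-st arrays measured 16 samples (labels and column names; the study's text calls the assay sequencing). The deposited values are log2 signals, which the authors preprocessed by a method they name the range migration algorithm and quantile normalized; background correction, software and build are not given in the sources used here. They were used as deposited. Each of 30920 genes was represented by its brightest feature over 16 arrays. A mean per group was fitted to all arrays with limma 3.58.1 (R 4.3.3), tested on simulated data first, and p-values were adjusted over all genes in each of 6 comparisons. The methods' Mann-Whitney test, exact for members, was an alternative. The median standard error was 0.11, limited by the number of arrays. Genes and lists, and the rule for named genes (the 6 genes, listed pathway and marker genes, and the 5 most like genes), were chosen with earlier results of these data known. Markers of natural killer cells (5 genes; 0 higher, 2 lower in Eze than Th17) and of innate lymphoid cells and stroma (6; none called there) were also measured. Ugt1a6a, Ugt1a6b and Il4i1 were not analysed here, and a few listed or like genes are counted but not reported here by name. Replicate numbers did not pair arrays. The column names of the unnumbered arrays begin with another number than those of the numbered arrays, so the names form separate sets. Whether these sets were separate experiments or array runs is not stated in the sources used here. The main fit held no term for them.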

Additional observations from a re-analysis of the deposited data

Results flagged for a closer look

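In 24 groups of 4 arrays, 6 genes in 4 groups each, the array farthest out was tested against the others by its gap over the group's range (Dixon's test); chance marks about 1 group in 20. Arnt in Eze was marked for replicate 3, at 8.16 against 8.11 to 8.12 in the others, a range of little size. Tiparp in Th17 was marked for the array without a number, at 7.95 against 7.68 to 7.70; among the numbered arrays alone Tiparp was 0.71 above Th0 in Th17, 0.45 lower in Eze than in Th17 and 1.42 lower in Rsv.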

How the results depend on the processing

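Of 666 values of the 6 genes under alternatives, 617 kept direction and side of the threshold. Some of these alternatives could hardly differ from the main fit. The second deposited table held the same values as the first, and each of the 6 genes had only a single feature to average. Centring each array on its median weakened Arnt in Eze against Th17 (-0.22) and Th0 (-0.15, adjusted p = 0.372), Cyp1a1 in Rsv against Th17 (0.36, adjusted p = 0.0656) and Ahrr in Rsv against Th0 (0.31), and turned 2 uncalled values near 0, Cyp1a1 in Th17 against Th0 (0.0323) and Ahrr in Rsv against Th17 (-0.0171). It moved the all-gene median from -0.08 to 0.08 in Eze against Rsv and from -0.07 to 0.03 in Eze against Th0, and the higher and lower calls from 3465 and 3241 to 3999 and 2236 (Eze against Th17), 4193 and 3845 to 2601 and 4670 (Rsv against Th17), 4117 and 4685 to 6796 and 2010 (Eze against Rsv), 3603 and 3360 to 4684 and 1807 (Eze against Th0), 4140 and 3963 to 3145 and 4481 (Rsv against Th0) and 2628 and 2255 to 2650 and 1704 (Th17 against Th0).

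With numbered arrays alone, Arnt in Eze against Th17 (-0.25) and Th0 (-0.22) and Ahrr in Rsv against Th0 (0.28) lost their calls, and Cyp1b1 in Rsv against Th17 gained one (0.46). With array weights the last was 0.37 (adjusted p = 0.0452) and Ahrr in Rsv against Th0 0.33 (adjusted p = 0.0544). With only the compared groups, Cyp1a1 in Rsv against Th0 was 0.44 (adjusted p = 0.05004), and by the exact Mann-Whitney test it (0.44, p = 0.114) and Rsv against Th17 (0.44, p = 0.0571) missed the threshold. The cause was not tested.

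Replicate numbers shared deviations weakly (24 correlations, -0.12 to 0.17). Both ends of this range lay between unnumbered arrays. With the replicate block, Arnt in Eze against Th0 stood at -0.25 (adjusted p = 0.0525), and no other call changed. With the set of array names, numbered or unnumbered, as the block instead, no call of the receptor genes changed.

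Without single replicates in turn, ranges were -0.27 to -0.23 for Arnt in Eze against Th0, 0.23 to 0.30 for Tiparp there, -0.36 to -0.25 for Arnt in Eze against Th17, 0.28 to 0.41 for Ahrr and 0.36 to 0.56 for Cyp1a1 in Rsv against Th0, and, in Rsv against Th17, 0.36 to 0.56 for Cyp1a1, 0.23 to 0.41 for Cyp1b1 and -0.0035 to 0.12 for Ahrr. Cyp1a1 in Th17 against Th0 ranged from -0.086 to 0.070, above 0 without Th0 replicate 1 (0.03) or 2 (0.07) or Th17 replicate 1 (0.0046) or 3 (0.05), and Ahrr in Rsv against Th17 was -0.0035 without Th17 replicate 2.

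With dim genes left out, 6528 genes were tested, without Ahrr, Cyp1a1 and Cyp1b1, which have no value there. Called were 4415 in Eze against Th17, 4464 in Rsv against Th17 and 4002 in Eze against Rsv. Against Th0 the calls were 4278 in Eze and 4489 in Rsv. These are fewer genes but larger shares than the 21.7% to 28.5% called over all 30920 genes. Ahr, Arnt and Tiparp belong to these brighter genes, so the larger shares are the ones to set beside their calls. Of 13 pathway genes, 10, 11 and 10 were called in Eze against Th17, Rsv against Th17 and Rsv against Th0. After Benjamini-Hochberg the Mann-Whitney test called 0 genes in all 6 comparisons, and at an unadjusted p under 0.05 it called 6060 to 8856, where limma called 4883 to 8802. The smallest p that 4 against 4 arrays allow is 0.0286. Brightness over background limits Ahrr, Cyp1a1 and Cyp1b1.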
